A study of Mus musculus with 13 samples.

Results

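HA CUT&RUN peaks of mouse embryonic fibroblasts (MEFs) were compared with and without induction of the transcription factor Myf6. The comparison used 4 of the 13 libraries of the series, 2 with induction and 2 without, and their peaks on chromosomes 1 to 19. Where intervals of the 4 lists shared at least 1 bp they were joined, which gave 48213 regions. Of these, 12588 had a peak in both induced lists and in neither uninduced list (called gained here), 910 had a peak in all 4 lists, and 41 had one in both uninduced lists and in neither induced list (called lost).

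All MEFs came from mice that carried 3 alleles, Pax7-CreERT2, Rosa26-LSL-tdTomato and CAG-rtTA3, so the doxycycline-dependent activator rtTA3 was driven by the CAG promoter. They were transduced with a lentivirus that holds mouse Myf6 with 3 HA tags in a row under a TRE promoter. The uninduced cells were therefore not free of the transgene: they carried it and spent 24 h in iMPC medium with 10 ng/mL bFGF and no doxycycline. The induced cells, labelled +Myf6, spent 24 h in the same medium with doxycycline hyclate at 2 µg/mL. Each reaction held 500000 cells and 5000 Drosophila nuclei as a spike-in, and the nuclei of a replicate were divided between the HA antibody and a control IgG. A further pair of HA libraries, from cells labelled +Myf6+F/R/C that were also given Forskolin (5 µM), RepSox (5 µM) and CHIR99021 (3 µM), and a single H3K27me3 library from such cells were used as readouts that played no part in defining the regions. The labels do not say whether replicates were separate cultures, so the spread between them may be technical. Peak lists hold no expression values, so the labelled cell type was not checked against marker genes, and whether uninduced cells made any tagged Myf6 was not tested.

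Myf6, also called MRF4, is a basic helix-loop-helix protein of the myogenic regulatory factor family, which also holds MyoD, Myf5 and myogenin. These factors pair with E proteins, bind short DNA motifs called E-boxes and activate muscle genes, and members of the family can turn fibroblasts into muscle-like cells. In CUT&RUN, a nuclease tethered to an antibody releases DNA fragments around the places where the antibody sits. The IgG reaction shows where chromatin is cut without a specific target, and H3K27me3 is the histone mark of Polycomb-repressed chromatin.

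The uninduced lists held 2130 and 4138 peaks (replicates 1 and 2) and the induced lists 28012 and 34566. Both induced lists lay far above both uninduced ones, with means of 31289 ± 4634 and 3134 ± 1420 peaks (SD, n = 2 each), a ratio of 9.98. Peaks covered 0.556 and 0.787 Mb without doxycycline and 9.59 and 10.8 Mb with it. With 2 libraries against 2, the exact permutation test (two-sided) gave p = 0.333 for both measures, the smallest value it can give, so no comparison between these groups could pass 0.05. Depth tended in the same direction, but it was alike in uninduced replicate 1 and induced replicate 2. The mean number of fragments per 10 kb, recovered from the peak scores, was 30.6 and 23.7 in the uninduced libraries and 42.4 and 30.6 in the induced ones. Uninduced replicate 1 and induced replicate 2, at 30.6 each, held 2130 and 34566 peaks. Fragment length was taken to be the width of the narrowest peak of each list, and the DNA fragments themselves were not measured. It was 152 and 108 bp without doxycycline and 161 bp in both induced lists. The induced lists, put at the depth of the uninduced list of their number by proportion, would keep 23319 and 28277 peaks, 10.9 and 6.83 times the uninduced counts. When fragment length was scaled as well, they would keep 22673 and 19303, 10.6 and 4.66 times the uninduced counts.

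**Figure D1:**
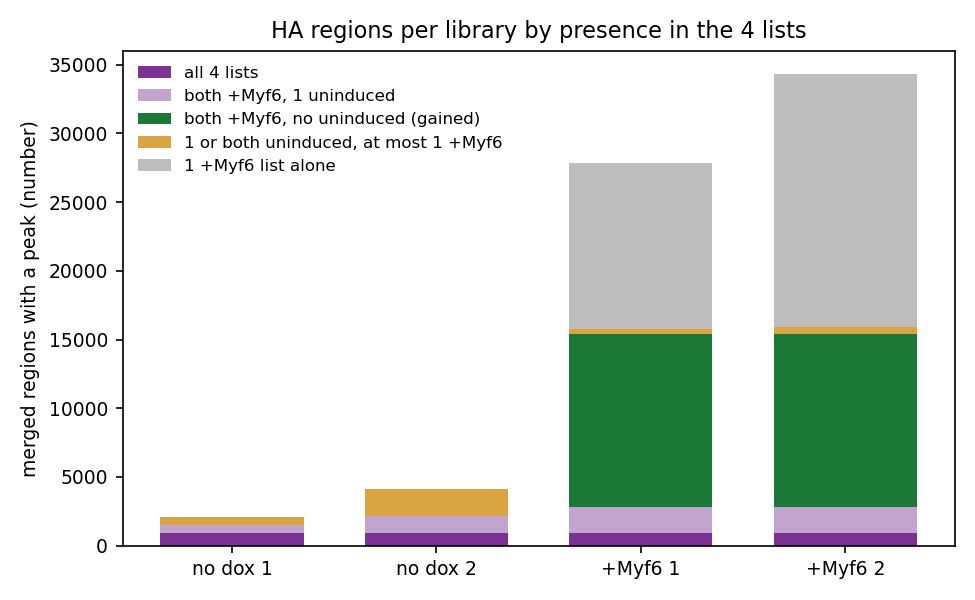
Number of merged regions with a peak in each of the 4 HA lists (bars), divided by the lists in which the region had a peak (colours). The 910 regions of all 4 lists form the base of each bar, and the 12588 gained regions stand in both induced bars, beside 12064 and 18409 regions found in a single induced list.

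The gained regions made up 26.1% of the 48213 merged regions. Another 12064 regions had a peak in induced replicate 1 alone and 18409 in induced replicate 2 alone. Induced replicate 1 shared 55.2% of its 27844 regions with induced replicate 2, and replicate 2 shared 44.8% of its 34304 regions with replicate 1. Leaving out either induced library therefore moved the number of gained regions by over 1.5 times, to 31314 without replicate 1 and 24837 without replicate 2. Requiring -log10 q of at least 5 in every HA list left 4979 gained regions. With the induced lists scaled to the depth of the uninduced lists there were 10056, and with fragment length scaled too there were 7652. A gained region is one without a called peak in uninduced cells: the lowest summit pileup called there was 5 fragments in replicate 1 and 4 in replicate 2, and signal under these levels is not in the lists.

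Gained regions were of moderate height. The summit pileup is the number of fragments that cover the summit of a peak. Its median over gained regions was 12 fragments in induced replicate 1 and 10 in induced replicate 2, or 17.6 and 20.3 times the library's genome-wide background pileup. A pileup of at least 10 in both libraries was reached by 6246 gained regions (49.6%), one of at least 20 by 351 (2.79%) and one of at least 30 by 21. The highest single values were 47 and 38 fragments. The median width of the merged gained regions was 462 bp. A peak in any of the 4 IgG lists of the same treatments was found at 212 of them (1.68%, exact Clopper-Pearson 95% interval 1.47 to 1.92%), against 938 (1.95%) of all 48213 merged regions. These intervals cover counting error over regions only. The 4 IgG libraries were shallower than the HA libraries compared, at 13.6 to 22.7 fragments per 10 kb. A missing IgG peak therefore does not show that background was missing.

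The 10 gained regions with the best mean rank of -log10 p in the induced lists showed the upper end of this class. The leading one lay on chromosome 9 at 94449701 to 94450651 (GRCm39), with 40 fragments in induced replicate 1 and 38 in replicate 2 and peaks of 827 and 750 bp. The next, on chromosome 13 at 37875987 to 37876532, had 38 and 32 fragments, and the summits of both libraries fell on the same base. A region on chromosome 17, at 12546690 to 12547311, had 41 and 31 fragments. These 3 lay well above the class medians of 12 and 10 in both libraries, which their choice by rank in these same lists favours.

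A second region on chromosome 13, at 58563380 to 58563946, also had its summits on the same base, with 47 and 26 fragments. One on chromosome 14, at 86773761 to 86774539, had 45 and 27. The regions on chromosome 2 (49801303 to 49802048) and chromosome 18 (10735514 to 10736377) had 35 and 33 fragments and 37 and 34 fragments. The others were on chromosome 3 (9254445 to 9255130), chromosome 9 (114582024 to 114582530) and chromosome 7 (67034865 to 67035710), with pileups of 29 to 46 fragments in replicate 1 and 25 to 30 in replicate 2. Replicate 1 was higher than replicate 2 at all 10, as its depth was. In the +Myf6+F/R/C cells, which were not used to choose them, each of the 10 was called in both HA lists. Pileups there were 35 to 81 fragments in replicate 1 and 21 to 52 in replicate 2. Both of these lists also had a peak at 60.9% of all gained regions and at 87.0% of their strongest quartile. None of the 10 had a peak in any of the 6 IgG lists, against 2.84% of all gained regions. An H3K27me3 peak was found at 4 of the 10, against 32.4% of all gained regions and 27.8% of all merged regions. No annotation of the build was used, so these regions are given by position and not by gene.

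Most regions called in both uninduced lists were also called in the induced lists. Of the 1041 regions with a peak in both uninduced lists, 910 (87.4%, 85.2 to 89.4%) had one in both induced lists and 1000 (96.1%) in at least 1. The uninduced lists overlapped each other less than they overlapped the longer induced lists. Uninduced replicate 1 shared 49.5% of its 2104 regions with uninduced replicate 2, and 81.6 and 77.6% with induced replicates 1 and 2. Uninduced replicate 2 shared 25.5% of its 4089 regions with uninduced replicate 1, and 59.6 and 64.2% with the induced lists. Regions in both induced lists and exactly 1 uninduced list numbered 1884, of which 1263 had their uninduced peak in replicate 2 and 621 in replicate 1. The number of regions in every list was 2175 without uninduced replicate 1 and 1529 without uninduced replicate 2, and it was 431 at -log10 q of at least 5.

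The 910 regions of all 4 lists held groups of different kinds. In 276 of them (30.3%, 27.4 to 33.4%) at least 1 of the 4 IgG lists of the same treatments had a peak, and in 226 all 4 did, against 1.68% with any IgG peak among gained regions. The other 634 had no IgG peak in these lists. The 5 regions of all 4 lists with the best rank in the induced lists all belonged to the first kind, with a peak in all 6 IgG lists and an H3K27me3 peak. The first, on chromosome 9 at 35216426 to 35216993, had 293 and 208 fragments without doxycycline and 291 and 285 with it. The region on chromosome 2 at 98496580 to 98497730 had 304 and 216 without and 320 and 321 with doxycycline, the highest pileups of their lists and 1.99 to 2.00 times the fragment length in bp, so the values there are limited by a ceiling. The region on chromosome 16 at 97908605 to 97908977 lay below the ceiling, with 129 and 70 fragments without and 100 and 90 with doxycycline. The induced and uninduced values overlapped there. The other 2 of these 5 lay on chromosome 12 (3159761 to 3160226) and chromosome 6 (103625911 to 103626334), with 197 to 260 fragments in every list, and on chromosome 12 uninduced replicate 2 was again at its highest value of 216.

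The 5 leading regions of all 4 lists without an IgG peak, chosen after the values were seen, had lower pileups. They were picked by their rank in the induced lists, which favours high induced values, so their differences between the groups are a description. On chromosome 10, at 107498293 to 107498992, uninduced cells had 27 and 19 fragments and induced cells 51 and 38. On chromosome 3, at 37929488 to 37930148, the values were 18 and 16 without and 50 and 42 with doxycycline. On chromosome 5, at 81221311 to 81222260, they were 9 and 11 without and 44 and 41 with it, and the peak widths were 305 and 166 bp without and 844 and 792 bp with it. On chromosome 15, at 95654950 to 95655696, they were 27 and 23 without and 45 and 34 with it. In these 4 regions both induced libraries lay above both uninduced ones. Divided by the background pileup of each library this held for the first 3, and at the region on chromosome 15 the groups overlapped (58.0 and 90.0 times the background without, 65.9 and 69.1 times with doxycycline). A region on chromosome 3 at 144348983 to 144349793 overlapped between the groups in fragments, with 48 and 29 without and 58 and 43 with doxycycline. Over the background pileup both induced values there, 84.9 and 87.4, lay below both uninduced ones, 103 and 113.

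Over all 910 regions, the direction of the pileup difference depended on how the libraries were scaled. Median pileups were 13 and 11 fragments without doxycycline and 22 and 18 with it. Divided by the fragments per 10 kb they were 0.424 and 0.465 without and 0.518 and 0.589 with doxycycline, a ratio of 1.25 (0.32 on the log2 scale, exact permutation p = 0.333). Divided by the background pileup, which carries fragment length as well as depth, they were 27.9 and 43.0 without and 32.2 and 36.6 with doxycycline, a ratio of 0.970 (-0.045 on the log2 scale, exact permutation p = 1). The groups overlapped on this second scale. On it, both induced libraries were above both uninduced ones at 170 regions (18.7%) and below both at 252 (27.7%).

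The 2 kinds of region lay on different sides of that total. Without an IgG peak, 163 of 634 regions (25.7%) had both induced libraries above both uninduced ones and 88 (13.9%) had both below. With an IgG peak, 7 of 276 (2.54%) were above and 164 (59.4%) below. These counts were taken over the background pileup. Divided by fragments per 10 kb, 57.3% were above and 6.78% below without an IgG peak, and 3.62 and 42.8% with one. In unscaled fragments the shares were 72.4 and 0.473% without an IgG peak, and 19.6 and 9.06% with one. The direction at regions with an IgG peak thus depended on the scale. A ratio taken inside each library does not depend on its scale. The median pileup of regions without an IgG peak, divided by that of regions with one, was 0.545 and 0.474 in the uninduced libraries (12 over 22 and 9 over 19 fragments). In the induced libraries it was 1 and 0.773 (22 over 22 and 17 over 22 fragments). Both induced values were above both uninduced ones, with means of 0.886 ± 0.161 and 0.510 ± 0.051 (SD, n = 2 each), a ratio of 1.74 (exact permutation p = 0.333, the smallest possible). This ratio was examined after the data were seen. It describes these 4 libraries, whose fragment lengths also differed, and does not show which of the 2 kinds differed between the treatments.

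Peaks at the regions without an IgG peak were also wider in the induced lists. Where a list had more than 1 peak in a region, their widths were added. The median peak width over these 634 regions was 263 and 244.5 bp without doxycycline and 554 and 503.5 bp with it. Both induced medians lay above both uninduced ones, at 529 ± 35.7 and 254 ± 13.1 bp (SD, n = 2 each), a ratio of 2.08 (exact permutation p = 0.333). At the 276 regions with an IgG peak the medians were 273 and 223.5 bp without and 291 and 307.5 bp with doxycycline, a ratio of 1.21. Both induced peaks were wider than both uninduced peaks at 634 of all 910 regions (69.7%) and narrower than both at 9 (0.989%). The share that was wider was 78.2% (496 regions) without an IgG peak and 50.0% (138 regions) with one. A called peak is wider where more of its flanks pass the threshold and where fragments are longer, so depth and fragment length move with these widths. With each list's fragment length, its narrowest width, subtracted, the log2 ratio of the widths over all 910 regions was 1.38, against 0.93 without this step. Taking similar lengths off narrow and wide peaks raises their ratio by itself, so this step does not set fragment length apart. The parts of depth and of fragment length were not tested.

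**Figure D2:**
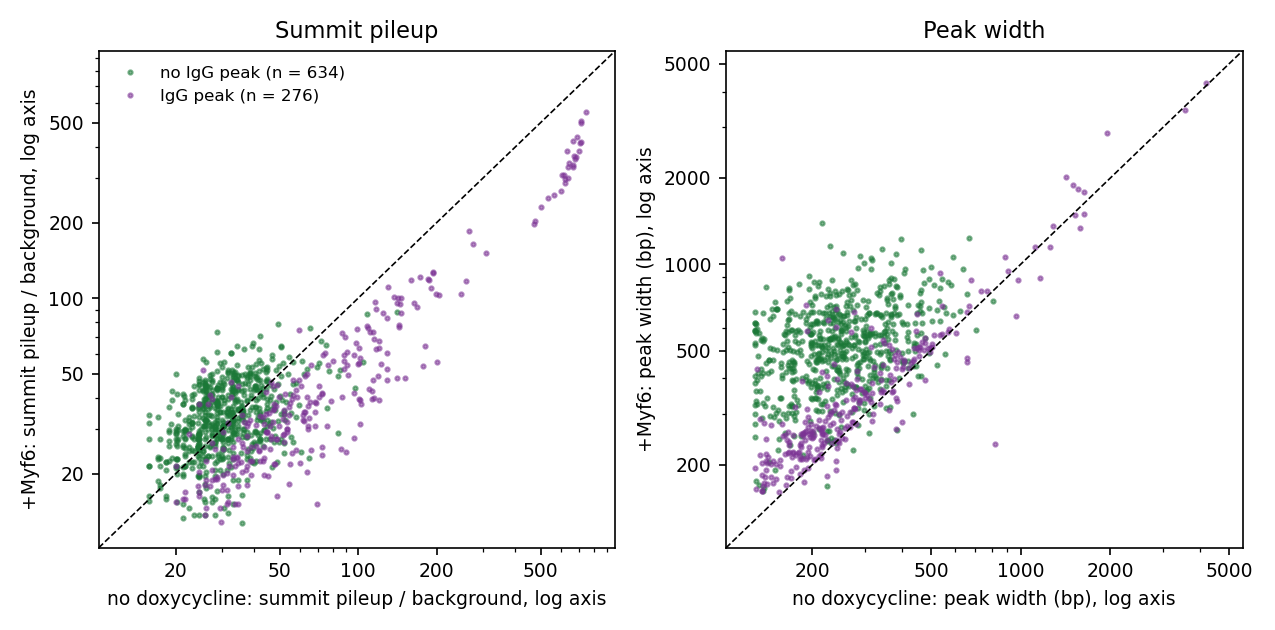
Each point is 1 of the 910 regions with a peak in all 4 HA lists, with the geometric mean of the 2 uninduced libraries on the x axis and of the 2 induced libraries on the y axis, for the summit pileup divided by the background pileup (left) and for the peak width in bp (right), on log axes. The dashed line marks equality. The 276 regions with an IgG peak lie along or under the line for pileup and near it for width, and the 634 without one lie around the line for pileup and mostly above it for width.

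Within the induced libraries, gained regions had lower summits than regions already called in uninduced cells. Median pileups in induced replicates 1 and 2 were 12 and 10 fragments at gained regions, 16 and 13 at regions with 1 uninduced peak, and 22 and 18 at regions of all 4 lists. The regions of all 4 lists without an IgG peak had medians of 22 and 17. The log2 ratio of gained to shared medians was -0.87 in replicate 1 and -0.85 in replicate 2. The distributions overlapped: in replicate 1 the 5th and 95th percentiles were 7 and 23 fragments at gained regions and 12 and 37 at regions of all 4 lists without an IgG peak. Merged widths followed the same order, with medians of 462 bp for gained regions, 563 bp with 1 uninduced peak, and 647.5 bp for regions of all 4 lists without an IgG peak, although a region merged from more lists is wider for that reason too. A stronger place is more easily called in any library, so these heights only describe the classes.

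**Figure D3:**
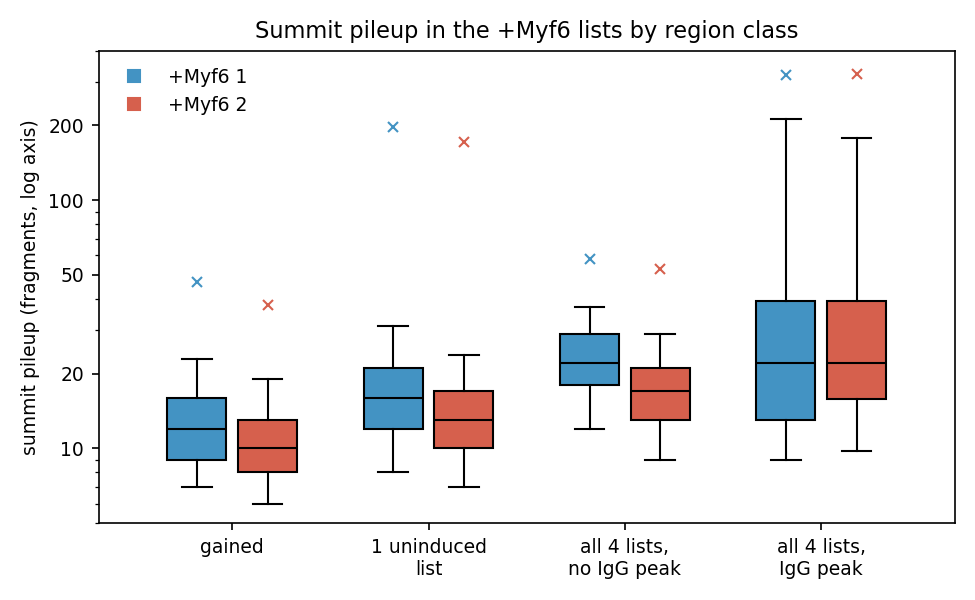
Summit pileup in fragments (log axis) in the 2 induced HA libraries, for gained regions, regions with a peak in 1 uninduced list, and regions of all 4 lists without and with an IgG peak. Boxes span the quartiles with the median as a line, whiskers run from the 5th to the 95th percentile, and crosses mark the highest value. Medians step from 12 and 10 fragments to 16 and 13 and then to 22 and 17 without an IgG peak.

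The strongest induced peaks were the most likely to be called in the uninduced lists as well. A stronger place is more easily called in any library, and the uninduced lists also define the gained class. The order below is therefore a description only. The 15382 regions of both induced lists were put in 10 equal bins by their mean rank of -log10 p in those lists. In the strongest bin, 45.0% of regions had no uninduced peak and 30.5% had one in both uninduced lists. In the weakest bin these shares were 95.4 and 0.325%. The share without an uninduced peak was higher in each weaker bin, also with the regions that had an IgG peak left out, where it ran from 51.5 to 95.5%.

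Peaks of the +Myf6+F/R/C cells, called in other libraries, returned most of the gained regions. Of the 12588, 9955 (79.1%) had a peak in +Myf6+F/R/C replicate 1, the deepest HA library at 61.9 fragments per 10 kb, and 8677 (68.9%) in replicate 2, at 40.9 fragments. Both lists had one at 7671 (60.9%, 60.1 to 61.8%) and neither at 1627 (12.9%). Over all 48213 merged regions, 50.4% had a peak in replicate 1, 42.4% in replicate 2, 32.4% in both and 39.6% in neither. Regions with 1 uninduced peak were found in both lists at 89.2%, and regions of all 4 lists without an IgG peak at 97.8%. For comparison, regions of a single induced list had a peak in these 2 lists at 49.7 and 28.1% (induced replicate 1 alone) and at 25.8 and 27.1% (induced replicate 2 alone).

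The share returned followed the strength of the gained region. From the strongest to the weakest quartile of gained regions it was 87.0, 68.3, 51.4 and 37.1% for both +Myf6+F/R/C lists. Within the same bin of rank, gained regions were returned less often than those with an uninduced peak and no IgG peak. In the strongest bin of rank, 95.2% of 692 gained regions (93.4 to 96.7%) and 99.2% of 638 regions with an uninduced peak (98.2 to 99.7%) were in both lists. In the sixth bin the shares were 60.9% (58.3 to 63.5%) and 83.5% (76.8 to 89.0%), and in the weakest 30.4% (28.1 to 32.9%) and 60.3% (47.7 to 72.0%). The gained share was the lower one in each of the 10 bins. The intervals cover counting error over regions of the same libraries, which are not replicates. Gained regions with an IgG peak were kept here, while the regions compared with them had none. In all 10 bins the regions with an uninduced peak were also wider and had a higher median pileup in replicate 1, with median pileups of 27 and 21 against 23 and 19 in the strongest bin. The part of that difference was not tested.

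**Figure D4:**
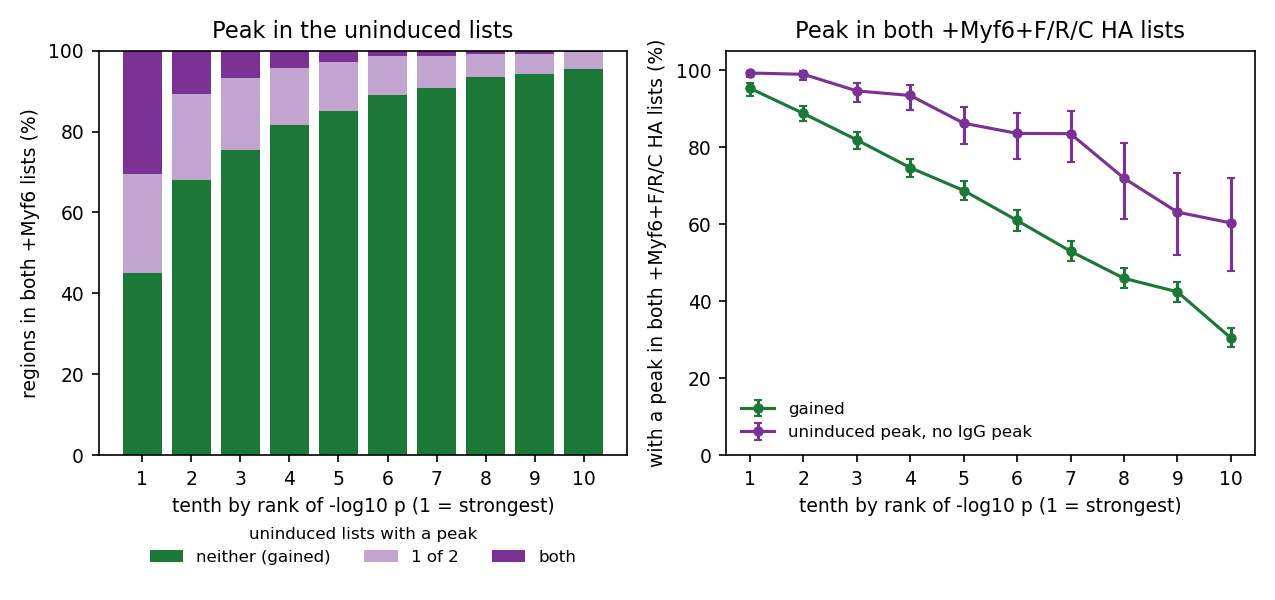
Regions of both induced lists in 10 equal bins by mean rank of -log10 p (x axis, 1 is the strongest). Left: percent of regions with a peak in neither, 1 or both uninduced lists. Right: percent called in both HA lists of +Myf6+F/R/C cells, with exact 95% intervals, for gained regions and for regions with an uninduced peak and no IgG peak. The share without an uninduced peak goes from 45.0 to 95.4%, and the gained regions stay under the others in each bin.

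The share of HA peaks that overlapped an H3K27me3 peak was higher in both uninduced lists than in both induced lists. An H3K27me3 peak shared at least 1 bp with 37.6 and 34.7% of the uninduced HA peaks and with 28.5 and 30.2% of the induced ones. Both uninduced lists were higher, with means of 36.2 ± 2.04 and 29.3 ± 1.16% (SD, n = 2 each), a difference of -6.82 percentage points for induced minus uninduced (exact permutation p = 0.333). With peaks that also had an IgG peak left out, the shares were 31.1 and 31.2% without and 27.4 and 29.2% with doxycycline, a difference of -2.82 points. Among the 2000 peaks with the highest -log10 p of each list the shares were 38.0 and 37.2% without and 37.4 and 43.2% with doxycycline, and the difference turned to 2.675 points. Those 2000 are nearly the whole list of uninduced replicate 1 (2130 peaks) and a small part of the induced lists (28012 and 34566), so they are not peaks of like rank. The H3K27me3 library was a single one and came from +Myf6+F/R/C cells, so it does not show the mark in the cells compared here.

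Among the classes of region, those called by IgG stood apart. To leave region width aside, single summit positions were placed on the H3K27me3 peaks. At gained regions, 25.04 and 25.02% of the summits of induced replicates 1 and 2 (24.3 to 25.8% in both) fell inside an H3K27me3 peak. At regions of all 4 lists without an IgG peak the share was 30.4 and 30.8% for uninduced summits and 31.9 and 32.8% for induced summits, so the intervals of the 4 libraries overlapped. At the regions with an IgG peak it was between 77.9 and 79.7% in all 4 libraries. Of these regions, 93.8 and 89.1% also had a peak in IgG lists 1 and 2 of the +Myf6+F/R/C cells. Whether an H3K27me3 peak there reflects the mark or cutting without a specific target was not tested. Regions of a single list were lower, at 17.7 and 22.7% for those of induced replicates 1 and 2 alone and 15.5 and 12.1% for those of uninduced replicates 1 and 2 alone. Over the quartiles of gained regions by strength the overlap of whole regions was flat, between 31.6 and 32.9%. Over all 48213 merged regions it was 27.8%.

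**Figure D5:**
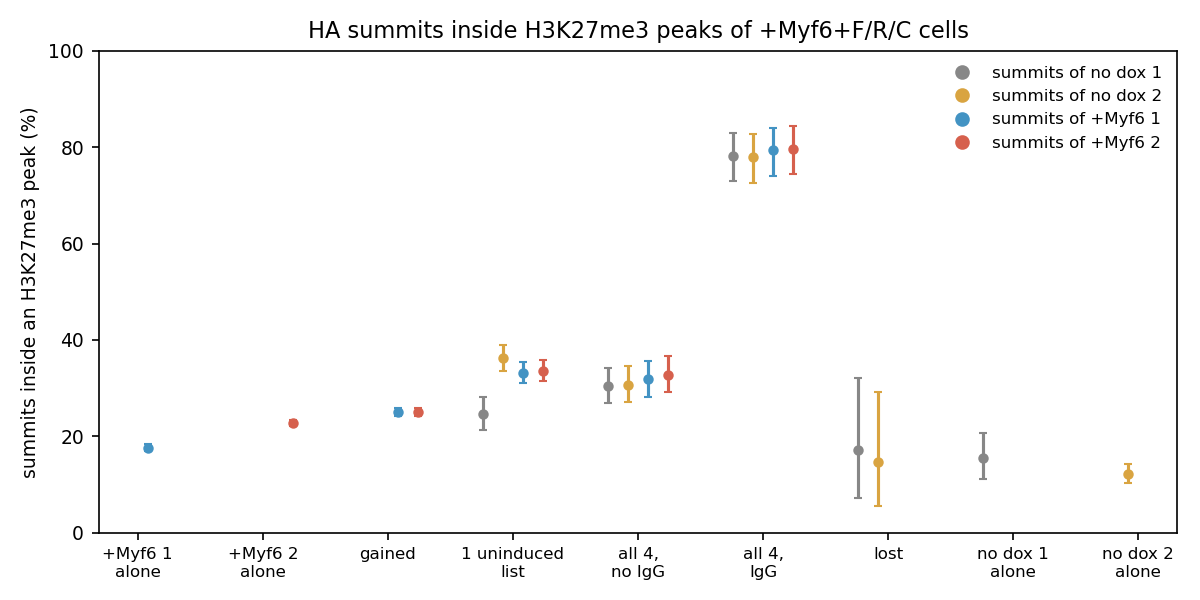
Percent of HA summits that fall inside an H3K27me3 peak of +Myf6+F/R/C cells, by region class (x axis) and by the library whose summit was used (colours), with exact 95% intervals. Regions of all 4 lists with an IgG peak stand between 77.9 and 79.7%, and gained regions at 25.04 and 25.02%. Of the former, 93.8 and 89.1% also had a peak in IgG lists 1 and 2 of +Myf6+F/R/C cells.

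Summits of different libraries lay closest together at the regions called by IgG. The summits of the 2 induced libraries were a median of 78 bp apart at gained regions (quartiles 29 and 175 bp), and within 50 bp at 37.6%. From the strongest to the weakest quartile of gained regions the median distance was 53, 79, 88 and 101 bp. At regions of all 4 lists without an IgG peak the median was 60 bp between the induced libraries, 68.5 bp between the uninduced ones, and 57 to 76.5 bp between an induced and an uninduced library. The 4 medians across treatments lay close to the 2 within them. At the regions with an IgG peak the median was 12 to 17.5 bp for every pair of libraries. Pileups behaved alike. Pearson's r of log2 pileups over regions was 0.55 between the induced libraries at 12588 gained regions and 0.64 at the 634 regions without an IgG peak. At those 634 it was 0.54 between the uninduced libraries and 0.31 to 0.45 across treatments. At the 276 regions with an IgG peak it was 0.88 to 0.93 for every pair. These are descriptions over regions, which share their libraries and are not replicates.

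Gained regions were spread over the autosomes. They numbered between 25.04 and 27.02 per 100 merged regions on every chromosome, and between 4.28 per Mb on chromosome 14 and 6.15 per Mb on chromosome 11. The nearest other gained region was a median of 34.6 kb away, and 16.3% had one within 10 kb. Joined at gaps of at most 10 kb, 10535 stood alone, and the others formed 886 runs of 2, 80 of 3, 9 of 4 and 1 of 5. The run of 5 lay on chromosome 6 at 30561938 to 30580479, with pileups of 14 to 24 fragments in induced replicate 1 and 10 to 21 in replicate 2. None of these 5 had an H3K27me3 peak, and 2 of them were called in both HA lists of +Myf6+F/R/C cells. Regions of all 4 lists without an IgG peak lay close to gained ones, a median of 28.1 kb from the nearest, which is near the distance between gained regions themselves. Those with an IgG peak were 80.0 kb away.

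Chromosome 9 held a larger share of the regions with an IgG peak than of the gained ones. On it lay 43 of the 276 (15.6%) and 673 of the 12588 gained regions (5.35%). Near the start of its assembled sequence, which in mouse chromosomes borders the centromere, 40 merged regions lay between 3000026 and 3067108. Of these, 20 were in all 4 lists with an IgG peak, 4 were lost and none was gained. Pileups there were 200 to 303 fragments in uninduced replicate 1, while the deposited folds were 1.64 to 3.06, since the local background was high as well. Over the first 3.2 Mb of all autosomes together there were 96 regions, of which 29 were in all 4 lists with an IgG peak, 1 was in all 4 without one, 8 were lost and 3 were gained.

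Few regions were lost on induction. The 41 lost regions were 0.085% of all regions. Only the 1041 regions with a peak in both uninduced lists could be lost, and 910 of these were in all 4 lists. The number of lost regions was set by the requirement of both uninduced lists. It was 1206 without uninduced replicate 1 and 287 without uninduced replicate 2. Without induced replicates 1 and 2 it was 92 and 80. The lost regions were narrow, with a median width of 217 bp. An IgG peak was found at 15 of them (36.6%, 22.1 to 53.1%), and a peak in at least 1 +Myf6+F/R/C HA list at 22. Neither of these HA lists had a peak at 46.3% of lost regions, against 39.6% of all merged regions. The leading lost region lay on chromosome 9 at 74024823 to 74025008. It had 12 and 22 fragments in uninduced replicates 1 and 2 and a peak in 2 of the 4 IgG lists. The next, on chromosome 7 at 63723665 to 63723834, had 18 and 13 fragments and a peak in 1 IgG list and in 1 +Myf6+F/R/C list. The other 2 before the fifth were in the first part of chromosome 9 described above, at 3004064 to 3004223 and 3033712 to 3033941, with 254 and 153 and 257 and 131 fragments. The fifth, on chromosome 13 at 110739518 to 110739678, had 13 and 10 fragments and a peak in 3 of the 4 IgG lists. All 5 had a peak in at least 1 IgG list of the same treatments.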

How the data were processed

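The authors deposited a narrow peak list for each library, with no pooling of replicates. Per the submitters' processing notes, MACS2, deepTools and DiffBind were used on GRCm39, and the aligner and tool versions were not given in the sources used here. The 4 columns used were, as deposited by the authors, the fold enrichment at the summit (a ratio), the -log10 of its p-value and of its q-value, and the summit's offset. If the fold is (k + 1)/(λ + 1) and the p-value the Poisson chance of more than k fragments, whole pileups k and expected pileups λ matched -log10 p within 0.002 at 99.9% or more of each list's peaks. The recovery was also tested on simulated data. The lowest λ is the background pileup. Fragments per 10 kb are that value times 10000 over the fragment length. The pileups were not tested with a count model.

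Intervals sharing 1 bp were merged on chromosomes 1 to 19. Libraries were compared with exact permutation tests, two-sided, and shares carry exact Clopper-Pearson 95% intervals. Named regions were the 10 gained and 5 shared with the best mean rank of -log10 p in the induced lists, and the 5 lost in the uninduced lists. Members and lists were chosen with earlier results of these data known. Genes, promoters and motifs were not analysed here, since no genome or annotation of this build was used. Python 3.11.15, numpy 2.4.6, scipy 1.17.1 and pandas 2.3.3 were used.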

Additional observations from a re-analysis of the deposited data

How the results depend on the processing

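The higher number of induced peaks kept its direction under all 10 alternatives, with log2 ratios of 2.62 to 3.88. So did peak width (9 alternatives, 0.67 to 1.38) and the within-library pileup ratio (8 alternatives, 0.65 to 0.97). For width, 1 of the 9 alternatives took the 2000 strongest peaks of each list in place of the shared regions (1.37). The pileup difference at regions of all 4 lists turned to -0.045 when divided by the background pileup and to -0.30 at regions with an IgG peak, and was otherwise between 0.05 and 0.74. The H3K27me3 difference turned to 2.675 points among the 2000 strongest peaks of each list, which are very different shares of the lists. At -log10 q of at least 5, there were 4979 gained, 431 shared and 21 lost regions and the log2 ratio of gained to shared pileup was -0.65. At 10 there were 748, 162 and 12. Scaling by the lowest expected pileup left 7652 gained regions, and leaving out regions with IgG peaks left 26 lost ones. Leaving out 1 library at a time gave 13206 to 31314 gained, 942 to 2175 shared and 80 to 1206 lost regions, and pileup ratios of -1.17 to -0.58 on the log2 scale. Why these values moved was not tested, beyond the fewer lists or peaks used. The alternatives that scaled by background, split regions or peaks by IgG, or concerned the within-library pileup ratio were chosen after seeing the data.

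With the replicate number as a replicate block, the log2 ratios were 3.39 for peak count, 0.32 for pileup, 0.93 for width and 0.79 for the within-library pileup ratio, and the H3K27me3 difference was -6.82 points, with no change of direction. The library names begin with H8 for both libraries numbered 2, with H7 for uninduced replicate 1 and with H5 for induced replicate 1. The labels do not say what these prefixes mean or that a number marks a shared batch. The replicate differences in presence of the 2 treatments had r = 0.00063 over 48213 regions. Most of these regions had no uninduced peak, so this value cannot show whether a number marks a batch. The planned results on motifs, promoters and genes, with their alternatives, were not run, because no genome or annotation of the files' build was used. Depth limits the weak end of the lists, where a pileup of 4 or 5 fragments was the lowest called.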
